A study of Mus musculus with 12 samples.

Results

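Arhgap10, Mpp2, Ccbe1 and Rtl5 were 4 of the 55401 genes counted in RNA sequencing of the mouse dendritic cell line Sp37A3, and they were chosen by their counts in these 12 libraries, close to silent in its control line and plainly expressed in its edited line. The choice used the contrast of the lines itself, so the difference between the lines is described below and was not tested. All 4 genes were among the 14079 genes that passed the expression filter, a log2 CPM (counts scaled for library size, logged to base 2) above 0 in at least 2 libraries, and they passed it only through the edited line.

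Sp37A3 is an immature dendritic cell line from mouse spleen, and all cells were grown with the growth factors GM-CSF and M-CSF. CtrV cells carried an empty lentiviral CRISPR vector, and EKO cells were a pool of single-cell clones transduced with a guide against Siglece, the gene of the inhibitory sialic acid receptor Siglec-E. Each line was taken either unpulsed or pulsed with ovalbumin (OVA) at 0.1 mg/ml for 2 h, and both kinds were stimulated with lipopolysaccharide (LPS) for 24 h. The stated LPS dose was 0.1 µg/ml. Each of the 4 groups had 3 libraries, so that there were 6 CtrV libraries and 6 from cells labelled EKO. Nothing in the labels says whether replicates came from separate cultures, so p-values measure the spread between these libraries, and a difference between a pool of clones and a vector-transduced line cannot be told apart from an effect of Siglec-E.

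The 4 genes encode proteins of unrelated kinds. Arhgap10 (also called GRAF2) is a GTPase-activating protein with a role in the actin cytoskeleton, on which dendritic cell migration depends. Mpp2 belongs to the membrane palmitoylated proteins, scaffolds with PDZ, SH3 and guanylate kinase-like domains that hold membrane proteins in place and are known from synapses. Ccbe1 is a secreted matrix protein that helps the protease Adamts3 to cut the precursor of VEGF-C, the growth factor of lymphatic vessels, and Rtl5 is a gene that mammals derived from the Gag part of a retrotransposon.

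Libraries held between 27116201 and 39698572 counts, so a level of 3 counts lay between 0.0774 and 0.108 CPM. The dendritic cell and leukocyte markers were in place in both lines, with 11 of 11 above a mean of 1 CPM. The summed level of 8 fibroblast markers did not exceed 0.258 CPM in any library, and Col1a2, Col3a1, Dcn and Pdgfra had no count. Siglece (chr7:43651070-43660161, GRCm38), the gene that was targeted, stood at 153.4, 149.8 and 161.6 CPM in unpulsed and at 152.8, 155.0 and 162.9 CPM in OVA-pulsed CtrV cells (replicates 1 to 3). In cells labelled EKO it stood at 163.7, 220.7 and 237.0 CPM without OVA and at 172.1, 207.9 and 202.0 CPM with OVA. Its mRNA was thus not lower in the line labelled EKO (log2 fold change 0.35 ± 0.06 SE, edgeR adjusted p = 0.00063), and that line is called EKO-labelled throughout. The paper screened the clones for Siglec-E and reports minimal or no expression in those it pooled. RNA counts do not measure the protein, so they do not show whether the knockout held. Principal component 2 of the most variable genes, 6.98% of the variance, placed both replicate 1 libraries of the EKO-labelled cells at -19 and -20.8 and their replicates 2 and 3 between 0.889 and 18.5. Values without replicate 1 are therefore given where a result rests on it.

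All 4 genes lie on the minus strand, on 4 different chromosomes. Arhgap10 (ENSMUSG00000037148) spans chr8:77250366-77517953 of GRCm38, with 3084 exonic bases. Mpp2 (ENSMUSG00000017314) spans chr11:102057015-102088515 with 4807 exonic bases. Rtl5 (ENSMUSG00000049191) spans chrX:102066544-102071304, is a single block of 4761 exonic bases, and lies wholly within an intron of Nhsl2, a gene on the opposite strand.

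The start regions of Mpp2 and Rtl5, the 2 of the 4 genes matched in the table of start windows, are shown so that their CG content can be set beside that of other genes. Each window runs from 250 bases before to 50 bases after an annotated start (RefSeq, GRCm38.p6, minus strand, written 5′ to 3′), with every CG dinucleotide in capitals. The first Mpp2 window is chr11:102088466-102088765, the second, from a start inside the gene, chr11:102082435-102082734, and that of Rtl5 chrX:102071258-102071557.
Mpp2, outer start: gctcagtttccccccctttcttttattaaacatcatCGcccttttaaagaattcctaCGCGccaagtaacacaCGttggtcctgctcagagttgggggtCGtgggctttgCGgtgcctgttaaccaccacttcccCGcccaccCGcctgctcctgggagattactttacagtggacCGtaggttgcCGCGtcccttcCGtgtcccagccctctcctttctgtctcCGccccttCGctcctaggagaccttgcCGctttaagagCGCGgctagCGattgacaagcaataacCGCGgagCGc
Mpp2, inner start: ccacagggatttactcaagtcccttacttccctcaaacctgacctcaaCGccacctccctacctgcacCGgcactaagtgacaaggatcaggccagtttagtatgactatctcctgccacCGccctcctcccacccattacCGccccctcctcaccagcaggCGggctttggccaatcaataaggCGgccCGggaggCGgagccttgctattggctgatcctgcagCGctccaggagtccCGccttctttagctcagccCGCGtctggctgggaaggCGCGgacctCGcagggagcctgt
Rtl5: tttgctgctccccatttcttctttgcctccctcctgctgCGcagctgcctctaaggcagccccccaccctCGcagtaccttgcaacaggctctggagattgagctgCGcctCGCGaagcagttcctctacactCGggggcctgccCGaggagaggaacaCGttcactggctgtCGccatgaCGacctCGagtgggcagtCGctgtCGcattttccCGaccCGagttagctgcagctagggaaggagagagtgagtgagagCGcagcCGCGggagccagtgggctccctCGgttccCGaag

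The outer Mpp2 window held 21 CG dinucleotides, 0.899 times the number its C and G content would give by chance, which placed it at percentile 87.3 of all windows. The inner Mpp2 window held 15 CG dinucleotides at 0.558 times that number, and the Rtl5 window 20 at 0.681 times. For comparison, the median of this ratio was 0.384 over all 32851 windows and 0.765 over windows of genes that passed the expression filter. Of the 3 motifs searched on both strands, the GC box GGGCGG was found 2 times in each Mpp2 window and not in that of Rtl5, and 35.7% of all windows hold it. The CCAAT box (letters CCAAT) occurred 2 times in the inner Mpp2 window and in neither other window, against 37.4% of all windows, and the TATA box TATAAA in none of the 3, against 13.6%.

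Arhgap10 had at most 12 counts in any CtrV library and at least 363 in any EKO-labelled one. Unpulsed CtrV libraries held 9, 4 and 7 Arhgap10 counts and OVA-pulsed ones 12, 7 and 6 (replicates 1 to 3). Unpulsed EKO-labelled libraries held 416, 422 and 363 counts and OVA-pulsed ones 622, 439 and 488. Its mean level was 0.240 ± 0.0712 CPM over the 6 CtrV libraries and 14.2 ± 1.67 CPM over the 6 EKO-labelled ones (SD), and the groups did not overlap. In all 14079 genes tested, 18.3% had every EKO-labelled library above every CtrV library, and the lowest Arhgap10 level in the EKO-labelled cells was 34.3 times the highest in CtrV cells. The summed counts of 2750 against 45 gave a ratio of 58.7, with a 95% counting interval of 43.8 to 80.7, which covers counting error only. In bulk RNA, fewer expressing cells and less RNA per cell cannot be told apart, also for the other 3 genes.

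Mpp2 had at most 4 counts in any CtrV library. Its counts there were 1, 1 and 1 without OVA and 2, 4 and 0 with OVA. In EKO-labelled cells they were 132, 41 and 53 without OVA and 283, 61 and 125 with OVA. Both replicate 1 libraries were high and both replicate 2 libraries low within the EKO-labelled cells, yet the lowest of them still lay 11.0 times above the highest CtrV library. The mean level was 0.0470 ± 0.0408 CPM over the 6 CtrV libraries and 3.48 ± 2.31 CPM over the 6 EKO-labelled ones (SD). Summed counts were 695 against 9, a ratio of 74.2 (95% counting interval 38.9 to 163), and without replicate 1 of the EKO-labelled cells the ratio was 45.6 (23.7 to 100.7).

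Ccbe1 was, per length of exon, the least expressed of the 4 genes in EKO-labelled cells. The gene (ENSMUSG00000046318) spans chr18:66045302-66302741, with 10831 exonic bases. CtrV libraries held 0, 2 and 2 Ccbe1 counts without OVA and 1, 2 and 3 with OVA, none above 3 counts. EKO-labelled libraries held 70, 54 and 27 counts without OVA and 126, 65 and 37 with OVA. Within each pulse the order of the replicates was the same, with replicate 1 highest and replicate 3 lowest. The mean level was 0.0546 ± 0.0353 CPM over the 6 CtrV libraries and 1.94 ± 0.893 CPM over the 6 EKO-labelled ones (SD). Summed counts of 379 against 10 gave a ratio of 36.4 (95% counting interval 19.6 to 76.5), and 26.8 (14.3 to 56.8) without replicate 1 of the EKO-labelled cells.

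Rtl5 was, per length of exon, the gene with the most remaining signal in CtrV cells. Unpulsed CtrV libraries held 14, 18 and 18 Rtl5 counts and OVA-pulsed ones 32, 21 and 9, all above 3 counts. In EKO-labelled cells there were 564, 283 and 226 counts without OVA and 1093, 280 and 366 with OVA. Replicate 1 was again the highest in both pulses, and the groups did not overlap. Mean levels were 0.594 ± 0.190 CPM over the 6 CtrV libraries and 14.2 ± 8.32 CPM over the 6 EKO-labelled ones (SD). Summed counts of 2812 against 112 gave a ratio of 24.1 (95% counting interval 20.0 to 29.4), which was 15.1 (12.4 to 18.5) without replicate 1 of the EKO-labelled cells. For Arhgap10 that ratio hardly depended on replicate 1, at 55.7 (41.5 to 76.7) without it.

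**Figure D1:**
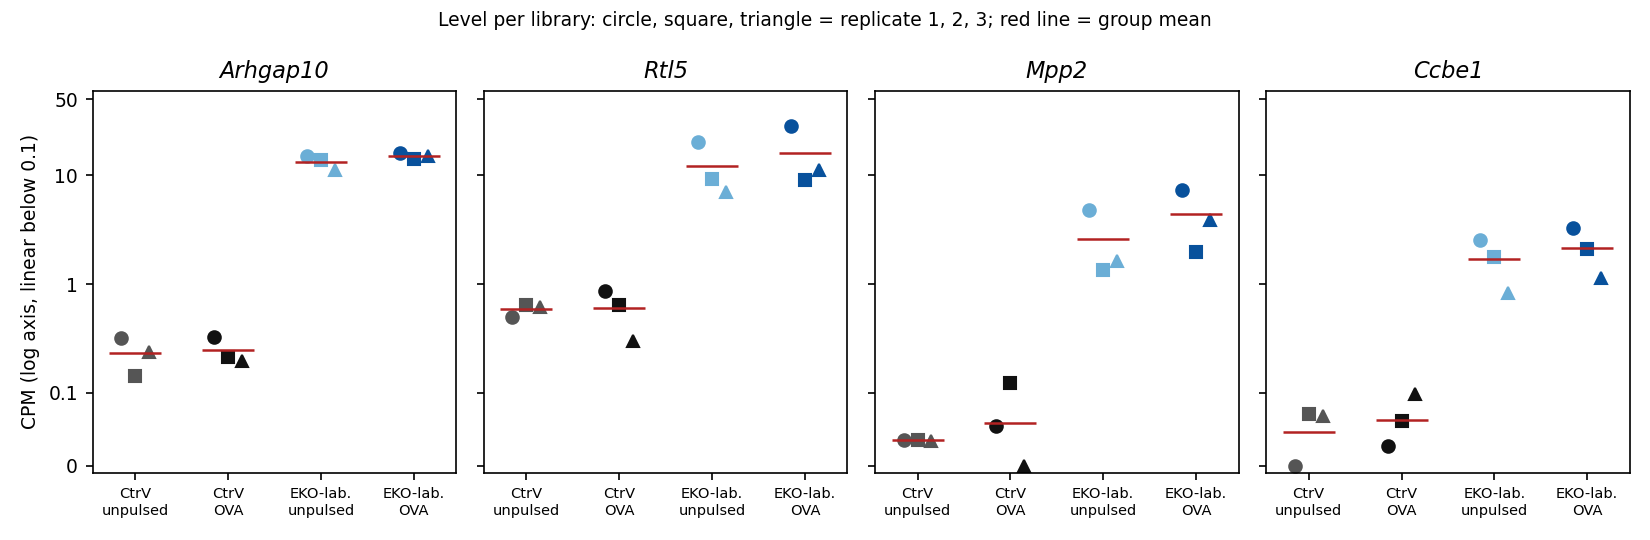
Level of each gene in CPM (log axis, linear below 0.1) in every library, by line and pulse, with a red line at the mean of each group of 3. EKO-labelled libraries lay above all CtrV libraries for all 4 genes, and the EKO-labelled points were tight for Arhgap10 (11.2 to 16.1 CPM) and wide for Rtl5 (6.96 to 28.2 CPM).

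Levels can be set against each other only per length. Per kilobase of exon, EKO-labelled cells held 4.61 ± 0.543 CPM of Arhgap10, 2.98 ± 1.75 of Rtl5, 0.723 ± 0.481 of Mpp2 and 0.179 ± 0.0824 of Ccbe1 (SD, n = 6). Arhgap10 and Rtl5 did not separate beyond their spread, since Arhgap10 was the higher in 5 of 6 libraries. The ranges of Rtl5 (1.46 to 5.92 CPM per kilobase) and Mpp2 (0.280 to 1.52) touched, as did those of Mpp2 and Ccbe1 (0.0768 to 0.3002), although the order held within 6 of 6 libraries for both pairs. In CtrV cells the upper pair stood the other way round, with 0.125 ± 0.0398 CPM per kilobase for Rtl5 and 0.0777 ± 0.0231 for Arhgap10, in ranges that overlapped. All 4 genes remained below the median of the tested genes in EKO-labelled cells (7.38 CPM per kilobase), from percentile 37.7 for Arhgap10 and 27.6 for Rtl5 to 8.27 for Mpp2 and 1.70 for Ccbe1.

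Strict limits of under 0.3 CPM in each CtrV library and over 1 CPM in each EKO-labelled library were met by 8 genes, Mpp2 and 7 that are no members. Arhgap10 fell just outside them, with 0.327 CPM in its highest CtrV library, and so did Ccbe1, with 0.832 CPM in its lowest EKO-labelled library, while Rtl5 lay between 0.298 and 0.871 CPM in CtrV cells. The other 7 genes were the choline transporter-like gene Slc44a5, the milk protein gene Csn1s1, the calcium-binding protein gene Cabp4, the amino acid transporter gene Slc7a8, the peptidase inhibitor gene Pi16, the B7 family gene Cd276 and the neutrophil collagenase gene Mmp8. Their EKO-labelled means ran from 1.32 ± 0.160 CPM for Mmp8 to 2.37 ± 1.14 CPM for Slc44a5 (SD, n = 6). The mirror of these limits, silence in EKO-labelled cells, was met by 23 genes.

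Whether OVA pulsing changed the 4 genes is a question the choice of members did not touch. No gene passed the test in either line. In EKO-labelled cells OVA-pulsed libraries were nominally higher, most for Mpp2, with a log2 fold change of 0.79 ± 0.22 SE (95% interval 0.31 to 1.27, edgeR unadjusted p = 0.0042, adjusted p = 0.9999). The Mpp2 level was 1.53, 1.45 and 2.36 times higher with OVA in replicates 1, 2 and 3. The fitted log2 fold change was 0.39 ± 0.19 for Rtl5 (95% interval -0.03 to 0.80), 0.34 ± 0.24 for Ccbe1 (-0.18 to 0.87) and 0.18 ± 0.09 for Arhgap10 (-0.03 to 0.39), each with an edgeR adjusted p of 0.9999. OVA-pulsed libraries were above unpulsed ones in 3 of 3 replicate pairs for Arhgap10, Ccbe1 and Mpp2 and in 2 of 3 for Rtl5, where replicate 2 gave a ratio of 0.967. Of all tested genes, 14.3% were higher with OVA in all 3 pairs.

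Over all 14079 genes, edgeR called 0 for OVA pulsing in EKO-labelled cells (percent called 0.0), with 398 at an unadjusted p under 0.05, and DESeq2 called 0, with 156. In CtrV cells, edgeR called 0 genes (percent called 0.0), with 230 at an unadjusted p under 0.05, and DESeq2 called 0, with 44. With at most 32 counts per library, a change by OVA in CtrV cells was not detectable at this depth except for a large one, and the 95% intervals of the log2 fold change ran from -0.71 to 0.89 for Arhgap10 and from -1.02 to 1.04 for Rtl5. They were wider for Ccbe1 (-1.96 to 2.54) and Mpp2 (-1.88 to 3.23), which had at most 4 counts per CtrV library. The dependence of the OVA effect on the line was called for 0 genes by edgeR (percent called 0.0, with 277 at an unadjusted p under 0.05) and 0 by DESeq2 (103). For Rtl5 that dependence had a 95% interval of -0.78 to 1.52 on the log2 scale and for Arhgap10 of -0.76 to 0.95, while for Ccbe1 (-5.26 to 5.35) and Mpp2 (-6.12 to 6.34) it was too wide to read.

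The replicate number separated the EKO-labelled libraries for 3 of the 4 genes, while the choice of members had used these 6 libraries only together. In the 6 libraries, with pulsing as a covariate, edgeR gave adjusted p = 0.0070 for Rtl5, 0.0071 for Mpp2 and 0.0093 for Ccbe1, and 0.26 for Arhgap10. The background was 1853 of 13704 genes called, 13.5%. Replicate 1 averaged 24.3 CPM of Rtl5 against 9.13 CPM in replicates 2 and 3 (2.66 times), 6.04 against 2.20 CPM of Mpp2 (2.75 times) and 2.89 against 1.46 CPM of Ccbe1 (1.98 times). Arhgap10 averaged 15.5 against 13.5 CPM (1.15 times). Both replicate 1 libraries stood above the other 4 libraries for all 4 genes, which 19.6% of all tested genes did. Siglece went the other way, with both replicate 1 libraries lowest (edgeR adjusted p = 0.041).

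Without replicate 1, the difference between replicates 3 and 2 passed the test for none of the 4 genes, where edgeR called 25 of 13525 genes (0.185%), 1131 at an unadjusted p under 0.05. Ccbe1 came nearest, with a log2 fold change of -0.98 ± 0.22 SE (edgeR unadjusted p = 0.0031, adjusted p = 0.20), and the value for Mpp2 was 0.69 ± 0.22 (unadjusted p = 0.017, adjusted p = 0.40 by edgeR). Rtl5, at -0.03 ± 0.17, and Arhgap10, at -0.11 ± 0.11, had intervals that held 0.

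**Figure D2:**
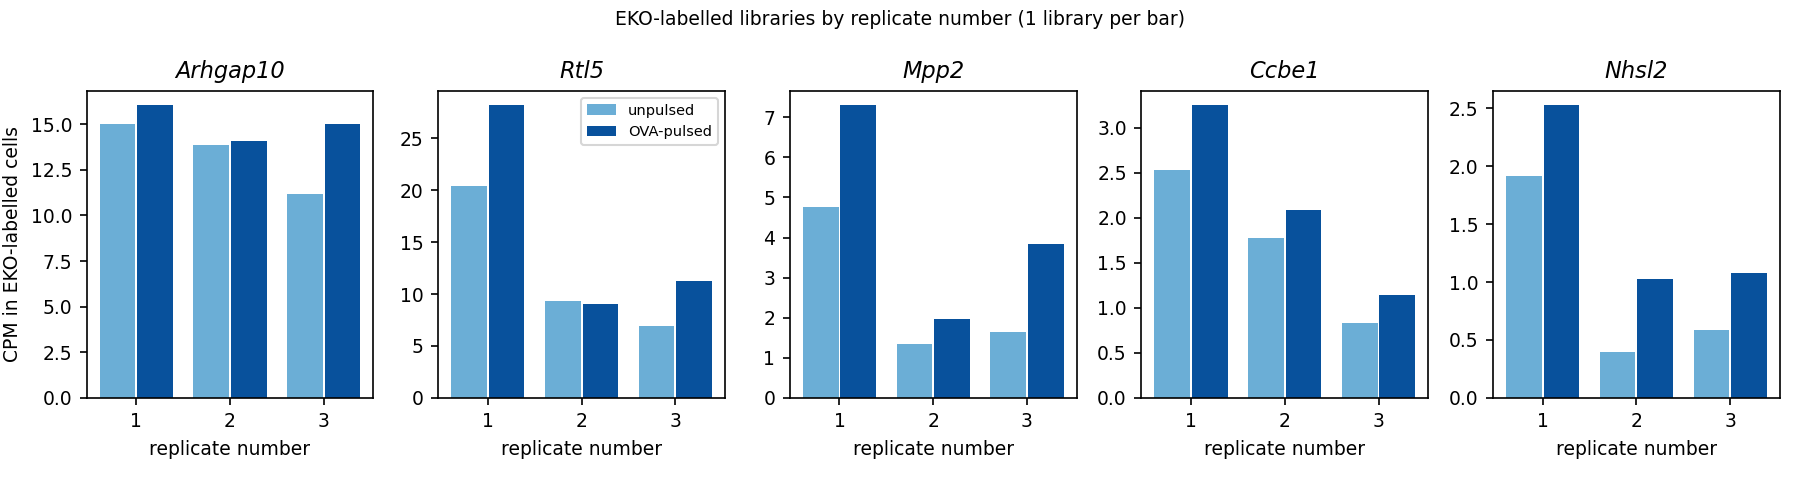
CPM in the 6 EKO-labelled libraries by replicate number, unpulsed in light and OVA-pulsed in dark blue, for the 4 genes and for Nhsl2, the gene that holds Rtl5 in an intron (axes start at 0, 1 library per bar). Replicate 1 was highest in all 5 panels, by 1.15 times over replicates 2 and 3 for Arhgap10 and by 2.75 times for Mpp2.

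The members' likeness to each other followed from the same 6 libraries. On log2 CPM, Pearson's r in the EKO-labelled libraries was 0.918 between Mpp2 and Rtl5, 0.808 between Ccbe1 and Rtl5 and 0.800 between Arhgap10 and Rtl5. It was 0.779 between Arhgap10 and Ccbe1, 0.749 between Arhgap10 and Mpp2 and 0.581 between Ccbe1 and Mpp2. These libraries share replicate numbers, pulse and depth, so the values are descriptions. Over all 12 libraries, where the gap between the lines sets the value, r lay between 0.953 and 0.990.

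Among about 12420 other genes, those most like Arhgap10 over the 12 libraries were the integrin gene Itgal (r = 0.997), the Fc receptor subunit gene Fcer1g (0.997) and Cd207, the gene of langerin (0.996). Those most like Mpp2 were Slc44a5 (0.990), Rtl5 itself (0.990) and Serpinf2 (0.988), and those most like Rtl5 were the phospholipase gene Pla2g4f (0.995), the chemokine gene Cx3cl1 (0.993) and E130311K13Rik (0.993). For Ccbe1 they were Csrp1 (0.986), Nxpe3 (0.983) and the integrin gene Itga3 (0.983). Of these genes, Slc44a5 stood at 0.0331 to 0.137 CPM in CtrV cells and Pla2g4f at 0.364 to 1.14 CPM. Within the 6 EKO-labelled libraries alone the 3 nearest genes were others, namely Tmem42, Zscan2 and Gimap8 for Arhgap10, B4galt7, Klhl21 and Hdac4 for Ccbe1, Mtx2, Ppdpf and Cytip for Mpp2, and Mrtfa, Sp6 and Chd7 for Rtl5.

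The genes around the members were also compared between the lines. Within 500 kb of a member, 39 of 143 annotated genes were tested and edgeR called 26 for the line difference, 10 higher and 16 lower in EKO-labelled cells. That is 66.7%, against 60.7% of all tested genes, of which 30.4% were higher and 30.3% lower. Their median log2 fold change was -0.02, against -0.01 over all tested genes. Mpp2 had 21 of the 39, of which 15 were called, 3 higher and 12 lower, with a median of -0.12. Around Rtl5, 6 of 12 were called (4 higher, 2 lower). Around Ccbe1 3 of 4 were called (2 higher, 1 lower) and around Arhgap10 2 of 2 (1 higher, 1 lower), too few to describe a region. Past 2-fold there were 4 called neighbours, 3 higher and 1 lower, against a background of 8.94% (5.61% higher and 3.33% lower). The 3 higher ones include Nhsl2, which passed the expression filter only through the EKO-labelled line.

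Nhsl2, the gene on the opposite strand whose intron holds Rtl5, was also higher in EKO-labelled cells. CtrV libraries held 2, 3 and 8 Nhsl2 counts without OVA and 5, 1 and 2 with OVA, and EKO-labelled libraries 53, 12 and 19 without OVA and 98, 32 and 35 with OVA. Again no EKO-labelled library overlapped with a CtrV library, and replicate 1 was highest. Nhsl2 passed the expression filter only through the EKO-labelled line, so the filter set the direction of its line difference. Its log2 fold change of 3.41 ± 0.35 SE is therefore a description. The replicate number passed the test for Nhsl2 in EKO-labelled cells (edgeR adjusted p = 0.013). The 2 genes share no exonic base in the annotation, and the use of strand in the counting is not given in the sources used here. The nearest tested genes beyond Nhsl2 had smaller differences. H3f3a-ps1, a pseudogene near-identical to a histone gene and so uncertain, had a log2 fold change of 0.19 (edgeR adjusted p = 0.0029) at 242 kb, and Pin4, at 48.1 kb, of 0.39 (adjusted p = 0.069).

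Around the other members the nearest tested genes were expressed in both lines. Prmt9, an arginine methyltransferase gene 31.4 kb from Arhgap10, rose from 12.4 ± 0.975 to 16.8 ± 1.01 CPM (SD, n = 6 each, log2 fold change 0.44, edgeR adjusted p = 2.5e-05). Tmem184c, at 78.0 kb on the same side, fell from 35.3 ± 3.37 to 25.1 ± 1.66 CPM (edgeR adjusted p = 4.3e-05). On the other side of Arhgap10 no gene within 500 kb was tested. Next to Ccbe1, the cargo receptor gene Lman1 (22.7 kb) fell by 0.13 on the log2 scale (edgeR adjusted p = 0.0083), and Pmaip1, which encodes the pro-apoptotic protein Noxa (156 kb), rose by 0.17 (adjusted p = 0.016, and 0.051 without replicate 3 of the OVA-pulsed CtrV cells). Next to Mpp2, the receptor gene Cd300lg (1.40 kb) fell by 0.65 (edgeR adjusted p = 0.0046) and the predicted gene Gm11585 (35.6 kb) fell by 0.71 (adjusted p = 4.7e-05). Farther off, Zfp532 (356 kb from Ccbe1) rose from 2.38 ± 0.270 to 10.7 ± 0.565 CPM (log2 fold change 2.16, edgeR adjusted p = 4.7e-09), Tmem106a (465 kb from Mpp2) rose by 1.18 (adjusted p = 1.3e-06) and Asb16 (180 kb from Mpp2) fell by 1.25 (adjusted p = 0.00017).

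**Figure D3:**
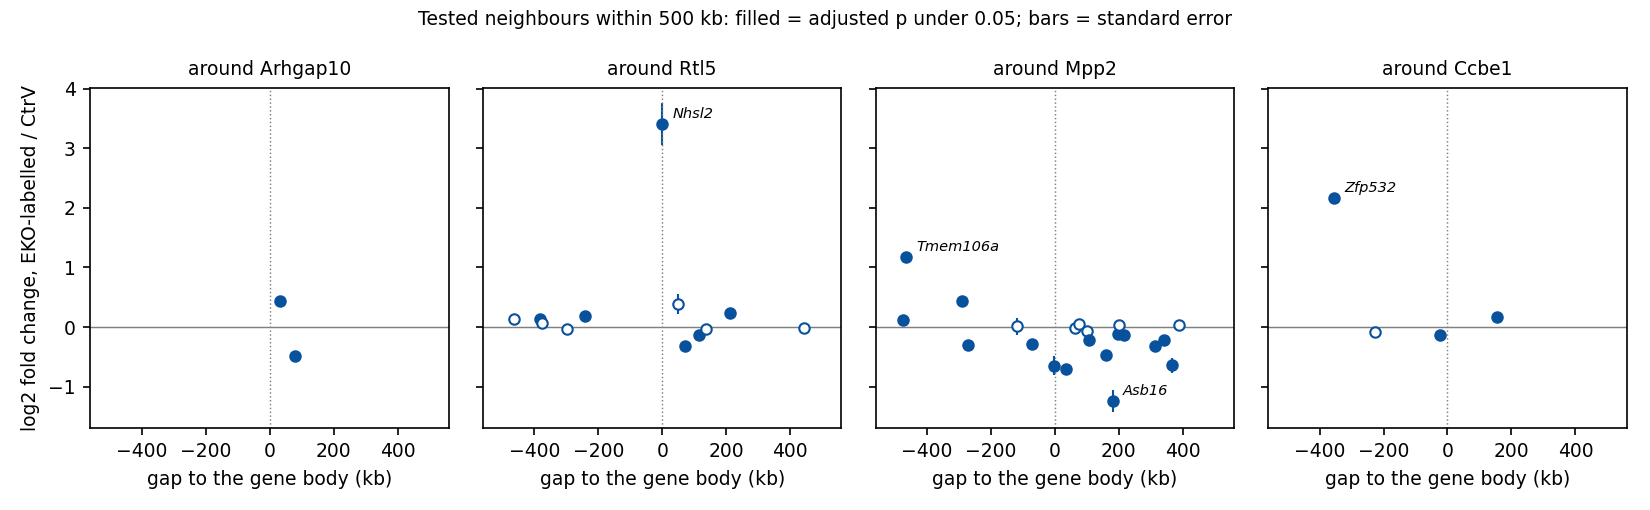
Log2 fold change of EKO-labelled over CtrV cells (bars, SE) of every tested gene within 500 kb of each member, against its distance from the gene body in kb, filled where the edgeR adjusted p was under 0.05. Nhsl2, at distance 0 from Rtl5, stands at 3.41, and 35 of the 39 neighbours lay under the 2-fold limit or were not called.

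Arhgap10 and Ccbe1 also share exonic bases with antisense genes. The antisense gene 0610038B21Rik covers 324 exonic bases of Arhgap10 (10.5%) and held 3 counts in all CtrV libraries and 65 in all EKO-labelled ones, too few to be tested. Gm15958 covers 320 bases of Ccbe1 (2.95%) and had no count in any library. Mpp2 overlaps with no annotated gene.

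The families and partners of the 4 genes did not follow one pattern. In the GRAF family of Arhgap10, the 2 relatives tested were higher in EKO-labelled cells, as 30.4% of all tested genes were. Arhgap26 rose from 55.4 ± 12.2 to 105.7 ± 20.4 CPM (SD, n = 6 each, log2 fold change 0.94, edgeR adjusted p = 3.5e-07). Arhgap42 stood at 0.238 ± 0.114 CPM in CtrV and at 1.67 ± 0.295 CPM in EKO-labelled cells (log2 fold change 2.79). It passed the expression filter only through the EKO-labelled line, so the filter set its direction and the value is a description.

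Of 19 scaffold genes related to Mpp2 or its partners, 12 were expressed enough to be tested. Of these 12, 7 were called, 5 higher and 2 lower, where 60.7% of all tested genes were called, and their median log2 fold change was 0.09 against -0.01 over all tested genes. Cask, a scaffold kinase of the same superfamily, rose from 5.04 ± 0.531 to 11.1 ± 1.39 CPM (SD, n = 6 each, log2 fold change 1.13, edgeR adjusted p = 1.4e-07). The membrane skeleton genes Epb41l3 and Epb41 rose by 1.04 (edgeR adjusted p = 2.4e-09) and 0.35 (adjusted p = 3.3e-05), and Mpp5 by 0.39 (adjusted p = 9.0e-05). Mpp3, the paralogue nearest to Mpp2 on the chromosome, was close to silent in both, at 0.0265 and 0.0521 CPM.

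The gene of VEGF-C, the growth factor on which Ccbe1 is known to act, was not detected. Vegfc, Vegfd, the receptor gene Flt1 and the protease genes Adamts2 and Pcsk5 had no count in any of the 12 libraries. Within a single library, an absence of counts allows up to 3 counts or 0.108 CPM. The protease gene Adamts3 stood at 0.104 ± 0.0756 CPM in CtrV and, in EKO-labelled cells, at 0.0112 ± 0.0174 CPM, and Flt4, the VEGF-C receptor gene, at 0.0281 and 0.0363 CPM. Of 5 tested genes of this axis, 3 were called, about the 60.7% called over all tested genes, and the median log2 fold change over the 5 was 0.19 against -0.01. The co-receptor gene Nrp2 rose from 1.15 ± 0.593 to 6.00 ± 2.78 CPM (SD, n = 6 each, log2 fold change 2.39, edgeR adjusted p = 1.3e-08), Furin, a protease gene of general use, from 153.3 ± 11.4 to 502.1 ± 44.7 CPM (1.71, adjusted p = 1.7e-09), and Vegfb fell from 10.0 ± 0.939 to 4.65 ± 0.449 CPM (-1.11, adjusted p = 1.8e-07).

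Among the retrotransposon-derived relatives of Rtl5, the Rtl8 genes were lower in EKO-labelled cells. Of 5 relatives tested, 3 were called, all 3 lower, where 60.7% of all tested genes were called and 30.3% were lower, and the median log2 fold change over the 5 was -2.21 against -0.01 over all tested genes. Rtl8a fell from 7.82 ± 0.766 to 1.40 ± 0.466 CPM (SD, n = 6 each), Rtl8b from 19.3 ± 0.522 to 4.16 ± 0.219 CPM and Rtl8c from 12.2 ± 0.684 to 1.99 ± 0.338 CPM. The log2 fold changes were -2.50, -2.21 and -2.61, with edgeR adjusted p = 3.8e-07, 4.3e-10 and 4.2e-09. Rtl8 genes are near-identical copies, so how reads were split among them is uncertain. Rtl10 and Moap1 were not called (-0.09 and 0.00), 9 of the listed genes had no count in any library, and Rtl9, too low to be tested, stood at 0.0334 ± 0.0388 CPM in CtrV and, in EKO-labelled cells, at 0.377 ± 0.228 CPM.

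**Figure D4:**
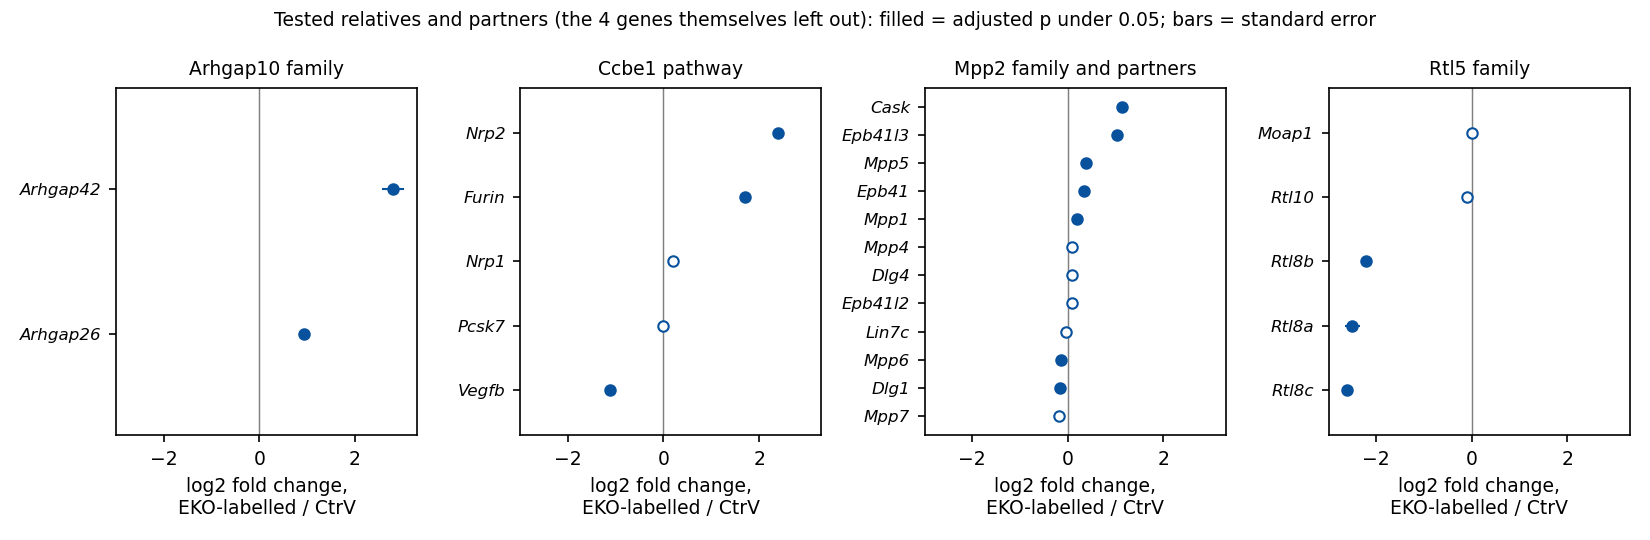
Log2 fold change of EKO-labelled over CtrV cells (bars, SE) of the tested relatives and partners of each member, filled where the edgeR adjusted p was under 0.05. Both Arhgap10 relatives lie to the right of 0, and the 3 Rtl8 genes to the left, between -2.61 and -2.21.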

How the data were processed

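RNA sequencing of CtrV and EKO-labelled Sp37A3 cells was analysed, with groups and replicate numbers from the labels and doses and times from the methods. The deposited table holds raw counts per gene. The authors aligned reads to mm10 with STAR, reported 1 location per read, and counted read ends on exon unions with featureCounts. The labels name a stranded kit, and the use of strand in counting is not given in the sources used here. Library totals set the precision, and counting intervals (Clopper-Pearson, 95%) cover counting error only.

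Tests used edgeR 4.0.16 in R 4.3.3 (TMM, quasi-likelihood fit over 12 libraries, group and replicate number as covariates, Benjamini-Hochberg adjustment over all 14079 tested genes, adjusted p under 0.05). The replicate number was tested in the 6 EKO-labelled libraries with pulsing as a covariate. The pairing comes from the labels and the methods. Deviations of same-numbered unpulsed and OVA-pulsed libraries correlated at 0.706, 0.351 and 0.41 in EKO-labelled and at 0.0774, 0.178 and 0.374 in CtrV cells. Positions come from GENCODE annotation of GRCm38, not that of the authors, and promoters from RefSeq.

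The 4 genes, the lists and the tests were chosen with earlier results of these data known. The named genes are the members, Siglece, the nearest tested gene on each side of a member, neighbours called past 2-fold, up to 4 called genes per list by size, the 3 genes most like each member, and genes within the 0.3 and 1 CPM limits. Mpp3, Rtl9, Rtl10, Moap1, genes without counts and antisense partners were named after their values were seen, and the ratio of the lowest EKO-labelled to the highest CtrV library, the values without replicate 1 and the comparison of replicates 3 and 2 were also chosen then. Tmem184c, Adamts3, Flt4, Dnmt1, Dnmt3l, Krt8 and Krt19 also fall outside the rules for named genes. One list and 1 single gene are not reported here. Likeness was computed from log2 CPM (prior count 2) among genes with a mean of at least 1. Alternatives were RLE or upper-quartile scaling, DESeq2 1.42.0, no filter, at least 10 counts in 3 libraries, bias-adjusted deviances, no replicate block, other windows, a 2-fold limit and leaving out each library. On simulated counts for OVA pulsing in EKO-labelled cells over 14079 genes, 81% of 100 genes changed 1.5-fold and 91% of 100 changed 2-fold were called, with 14 false calls. The simulated counts had 1 mean per gene over both lines and no difference between replicates. They therefore do not show how large an OVA effect could be detected in the 4 genes.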

Additional observations from a re-analysis of the deposited data

How the results depend on the processing

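The counts of members called did not change under any alternative run, with 0 for OVA pulsing in either line and for its dependence on the line, and 3 for the replicate number, also with each library left out in turn. Across these settings the OVA log2 fold change in EKO-labelled cells ranged from 0.07 to 0.27 for Arhgap10, 0.22 to 0.41 for Ccbe1, 0.58 to 0.97 for Mpp2 and 0.22 to 0.62 for Rtl5. The largest adjusted p for the replicate number was 0.033 for Ccbe1, 0.019 for Mpp2 and 0.019 for Rtl5, and Arhgap10 lay between 0.11 and 0.85. Of the 39 neighbours tested, 26 were called, 23 to 26 with a library left out, and 4 past a 2-fold limit, 17 of 25 within 250 kb and 58 of 91 within 1000 kb. Of 62 listed genes 40 were called, 34 to 41 with a library left out, and 13 past a 2-fold limit. The counts past 2-fold follow from the stricter limit and those of other windows from the number of genes in them, and the cause of the changes with a library left out was not tested. Of 1399 refits of single genes (members, called neighbours and called listed genes), 1330 kept direction and side of the threshold, 69 lost the call and 0 reversed. Without the replicate block the line difference was called for 7470 genes instead of 8539, and the block changed no call of a member. Over all genes, the 1853 called for the replicate number became 667, 2867 and 890 without unpulsed EKO-labelled replicates 1, 2 and 3, 1048 and 1162 without OVA-pulsed replicates 1 and 3, and 2853 without the expression filter, and the cause was not tested. Counts of 0 to 4 limit what can be said of Ccbe1 and Mpp2 in CtrV cells.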

Other observations

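The genes that write or remove DNA methylation and repressive histone marks, a list chosen with earlier results of these data known, were above a mean of 1 CPM for 19 of 21. Dnmt3l had 1 count in all and was not tested. Of 20 tested, 13 were called by edgeR for the line difference, 5 higher and 8 lower in EKO-labelled cells, and their median log2 fold change was -0.07, against -0.01 over all tested genes, of which 60.7% were called. Tet1, which oxidises methylated cytosine, fell from 0.969 ± 0.427 to 0.129 ± 0.0290 CPM (SD, n = 6 each, log2 fold change -2.84). No EKO-labelled library held more than 0.161 CPM of Tet1, so Tet1 passed the expression filter only through the CtrV line. The filter thus set its direction and its fold change is a description, although Tet1 is counted among the 8 lower genes. Its relative Tet2 rose from 43.4 ± 14.2 to 99.3 ± 16.6 CPM (log2 fold change 1.24, edgeR adjusted p = 9.1e-06). The H3K27 demethylase genes Kdm6b and Kdm6a rose by 1.22 (edgeR adjusted p = 7.4e-08) and 0.43 (adjusted p = 3.4e-06) on the log2 scale. The methyltransferase gene Dnmt1 fell from 206.5 ± 15.2 to 178.5 ± 10.3 CPM. No DNA methylation or histone mark was measured.

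Markers of other cell types were at or near the floor for 2 lists, and 1 gene carried most of the sum in each of the 3 others. The 6 lymphoid markers summed to 0.214 to 0.599 CPM in CtrV and 0.707 to 1.42 CPM in EKO-labelled libraries, with Cd3e, Cd3g and Ncr1 at 0. The 8 fibroblast markers summed to 0 to 0.137 CPM and 0.154 to 0.258 CPM. The 8 endothelial markers summed to 169 to 205 CPM and 281 to 347 CPM, nearly all of it Pecam1 (means 179.3 and 322.5 CPM), which leukocytes also express, while Cdh5 stood at 1.33 and 2.45 CPM and Tek, Prox1 and Cldn5 at 0. The 6 neuronal markers summed to 61.6 to 74.2 CPM and 105 to 130 CPM, nearly all of it Syn1 (67.5 and 116.5 CPM), with Snap25 at 0. The 5 epithelial markers summed to 576 to 657 CPM in CtrV and 179 to 209 CPM in EKO-labelled libraries, most of it Cdh1 (586.7 and 164.0 CPM). Epcam was higher in EKO-labelled cells (23.5 and 28.4 CPM, edgeR adjusted p = 0.014), Krt8 and Krt19 had 1 count each and Krt18 none. Their part in the level of the 4 genes was not tested.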
